A study of Mus musculus with 2 samples.

Results

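The regions described here are the right ends of mouse chromosomes 1 to 19 in the build mm10. For each chromosome the last base that carried a read in any of the 4 tracks was taken as the end, and the 10 kb before it were cut into bins of 500 bp, which gave 380 bins of 4806697 over the covered span of these chromosomes. Strands were counted apart. The END-seq libraries were made from splenic B cells, isolated as CD43- cells from mice that were 4 to 8 weeks old. For the S-phase library the cells were activated with anti-CD40 (1 µg/mL) together with IL-4 (25 ng/mL) over 24 to 28 h. For the G1-phase library quiescent cells were cultured over the same hours, with neither of these added. Both titles carry the prefix ATR+c, which the labels do not explain, and they give neither a strain nor the number of mice per library. END-seq counts DNA ends and no RNA, so the cell type was not checked against marker genes.

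Each group has 1 library, so no test was possible, no spread between replicates is known, and every difference below is one between these libraries. The S-phase library held 20543572 reads on chromosomes 1 to 19 and the G1 library 26889564, on 7087979 and 6738117 strand-specific positions, or 2.90 and 3.99 reads per position. Levels are given as reads or as RPM, reads per 1000000 reads on these chromosomes. Where a pair of values carries no label, the S-phase value stands first. Ratios are S phase over G1 phase, with 95% intervals (conditional exact for a pair of counts, exact Clopper-Pearson for shares). These cover the counting error of reads only. Stacked reads at a base can be copies of 1 molecule, and where they are, the intervals are too narrow. A count of 0 allows up to 3 reads, or 0.146 and 0.112 RPM.

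Mouse chromosomes carry the centromere near the left end, so the right end is the end of the long arm. It is capped by a telomere, a long array of the 6-base repeat TTAGGG bound by the shelterin proteins, which keep the natural end from being treated as a break. The G-rich strand runs toward the end and extends past the C-rich strand as a single-stranded overhang, and genome assemblies hold only a short piece of each array. In END-seq, single-stranded overhangs are removed and an adapter is joined to the blunted end, so each read starts where a DNA end was. A minus-strand read runs to the left, away from the right end of the chromosome, and a plus-strand read runs toward it. The sequence of the ends was not used here, so positions below are given by their distance, with base 1 as the last covered base. How reads that match several chromosome ends were placed is not stated in the labels, so values for a single end describe where reads were placed.

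Most reads at the right ends lay on the minus strand and in the outermost 500 bp. The 19 ends together held 15473 and 10666 minus-strand reads within these 500 bp, or 753 and 397 RPM. This was 92.1% and 89.4% of the minus-strand reads of the whole 10 kb. Per base, the level was 429 times that of the preceding 100 kb in S phase (418 to 442), against 217 times in G1 phase (211 to 223). Without chromosome 16 it was 251 (243 to 259) and 162 (157 to 167) times. Over the full 10 kb the level was 23.3 and 12.2 times, or 14.4 and 9.40 times without chromosome 16. Between 501 bp and 1 kb the minus-strand counts fell to 647 and 506 reads, and from 1 kb to 10 kb the remaining bins together held 679 and 762, which was 1.05 (0.966 to 1.13) and 0.862 (0.800 to 0.928) times the preceding level. The strong signal thus ended within 1 kb of the last covered base in both libraries.

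**Figure D1:**
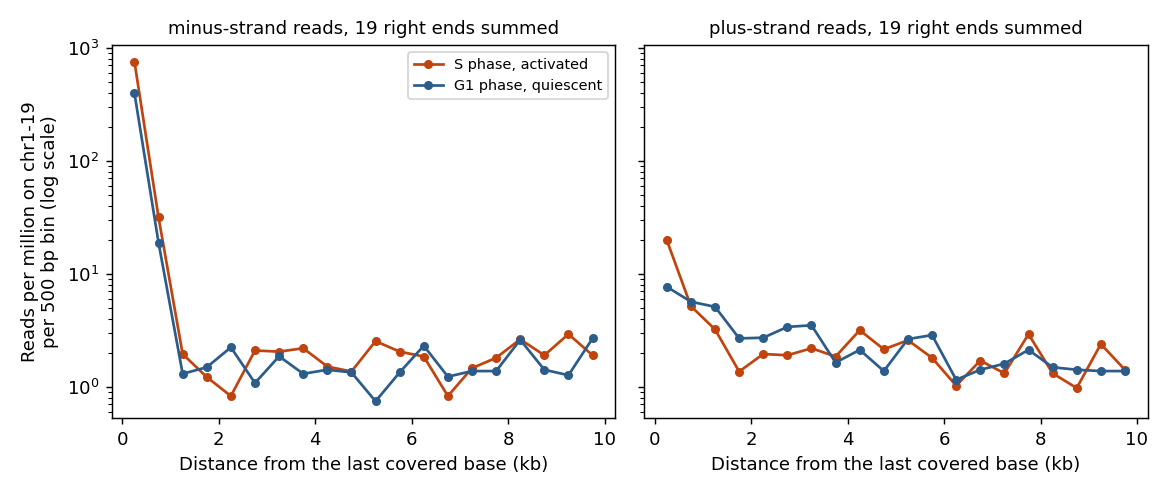
RPM (log scale) against distance from the last covered base in kb, summed over the 19 right ends in bins of 500 bp, minus strand on the left and plus strand on the right. The outermost minus-strand bin stands at 753 RPM in S phase, against 397 RPM in G1 phase, and all minus-strand bins beyond 1 kb lie below 3 RPM.

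The minus strand held 97.4% (97.2 to 97.7) of the reads in the last 500 bp in S phase, against 98.1% (97.8 to 98.4) in G1 phase. In the preceding 100 kb the strands were nearly even, with 50.4% and 51.0% on the minus strand. From 1 kb to 10 kb the minus strand held 48.4% (45.8 to 51.1) and 41.5% (39.2 to 43.8). At 17 of the 19 ends the last 500 bp held at least 20 minus-strand reads in a library. There the minus-strand share ran from 69.2% to 99.7% with a median of 95.9% in S phase, and from 81.4% to 99.6% with a median of 98.0% in G1 phase. At each of these 17 ends base 1 itself carried a minus-strand read, whereas the plus-strand read closest to the end began at base 63 to base 102. Base 1 was defined as the last base with a read in any track. With no plus-strand read closer than base 63, it could only be a minus-strand base. A plus-strand read runs toward the end and can be placed only where its length fits into the assembled sequence. Read length is not given in the sources used here, and how far this raises the minus-strand share was not tested.

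Chromosomes 4 and 9 had no such cluster. On chromosome 4 (last covered base 156357824) the last 500 bp held 0 and 4 minus-strand reads, and on chromosome 9 (last covered base 124492004) 0 in both. Their last covered base was set by a plus-strand read. The nearest gene to the end of chromosome 4 is Vmn2r125, a vomeronasal receptor pseudogene whose annotation ends 2.36 kb from the last covered base. On chromosome 9 it is Ppp2r3d, 15.1 kb away. These 2 ends had the fewest reads of all 19 over the full 10 kb, with minus-strand levels of 1.67 and 1.76 times the preceding 100 kb on chromosome 4 and 0.563 and 1.20 on chromosome 9, S phase first.

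The 17 ends with a cluster differed widely in size. Minus-strand reads in the last 500 bp ran from 36 to 6974 with a median of 528 in S phase, and from 40 to 3151 with a median of 470 in G1 phase. In the 100 kb before the 19 ends, minus-strand counts per 10 kb ran from 13.8 to 56.8 in S phase and, in G1 phase, from 19.9 to 79.3. Of all 500 bp bins of chromosomes 1 to 19, counted by strand, 0.0134% reached 100 reads in S phase, against 0.0118% in G1 phase. Of the 19 outermost minus-strand bins, 15 reached 100 reads in S phase, against 14 in G1 phase.

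Chromosome 16 (98107277 to 98107776) had by far the most, 6974 and 3151 minus-strand reads, or 339 and 117 RPM. That was 45.1% of the outermost minus-strand reads of all 19 ends in S phase, against 29.5% in G1 phase. The nearest gene there is the long noncoding RNA gene A630089N07Rik, which ends 25.3 kb before the last covered base. Chromosome 7 (145340957 to 145341456) followed with 1339 and 1065 reads. Its nearest gene, Mrgprd, encodes a receptor of sensory neurons and ends 17.4 kb before the last covered base. Chromosome 18 (90602140 to 90602639) held 1066 and 905 reads, with the protein-coding gene Gm45871 8.915 kb away. Chromosome 14 held 957 and 781 in its outermost bin (124801749 to 124802248) and its cluster ran on into the next bin, with 613 and 478 reads. The fibroblast growth factor family gene Fgf14 lies 125 kb from that end.

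By the RefSeq annotation of GRCm38.p6, which is mm10, a gene reached into the last 10 kb at 8 of 19 ends. The closest were Gm21814 on chromosome 6, which ends 0.383 kb from the last covered base, and Wls, which encodes a carrier of secreted Wnt proteins, 1.01 kb from the end of chromosome 3. The ferritin light chain pseudogene Ftl1-ps2 lies 2.09 kb from the end of chromosome 10. The small nuclear RNA gene Gm24242 is the nearest to the end of chromosome 5, at 34.4 kb.

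The outermost minus-strand level was higher in S phase at most ends and by a similar factor. Summed over the 19 ends the ratio was 1.90 (1.85 to 1.95), and over the full 10 kb it was 1.84 (1.80 to 1.89). Chromosome 16 weighed heavily in this sum: without it the ratio of the last 500 bp was 1.48, and with stacks capped at 28 and 38 reads it was also 1.48. In the preceding 100 kb the minus-strand ratio was 0.960 (0.932 to 0.990). Of the 17 ends, 15 had a ratio above 1 and 2 below, with 14 intervals wholly above 1 and 2 wholly below. The median of the 17 ratios was 1.48, and 13 of them lay between 1.3 and 1.7. Since reads that match several ends may be shared among them, counts of ends here and below are not counts of independent observations.

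Chromosome 16 had the highest ratio, 2.90 (2.78 to 3.02). With stacks capped it was 1.45. Where a stack exceeds the cap in both libraries, its ratio is set by the caps and not by its reads. This holds for the highest stack of this end, with 2025 and 1493 reads. Part of the fall is therefore built in, and the capped value does not show whether the excess of this end is like that of the others. Chromosome 6 came next, with 114 and 55 reads and 2.71 (1.95 to 3.81), or 2.23 with stacks capped. Chromosomes 7, 14 and 18 stood at 1.65 (1.52 to 1.79), 1.60 (1.46 to 1.77) and 1.54 (1.41 to 1.69), and chromosome 5, with 332 and 264 reads, at 1.65 (1.40 to 1.94). The intervals of these 4 ends overlap. Chromosome 10 went the other way, with 193 and 324 reads, at a ratio of 0.780 (0.649 to 0.935), and chromosome 15, with 36 and 79 reads, stood at 0.596 (0.391 to 0.895). On chromosome 17 the interval held 1, with 42 and 40 reads, at a ratio of 1.37 (0.870 to 2.17).

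**Figure D2:**
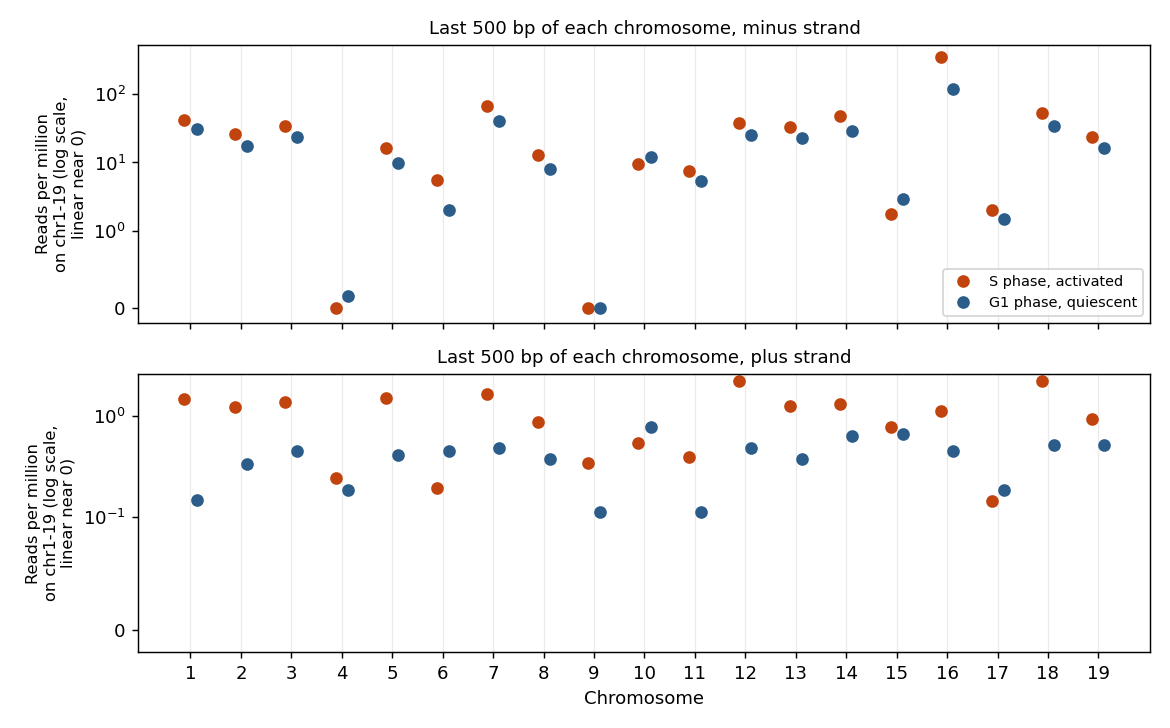
RPM in the last 500 bp of each chromosome, minus strand above and plus strand below, on a log scale that turns linear near 0, with 1 point per library. On the minus strand the S-phase point lies above the G1 point at 15 of the 17 ends with a cluster, chromosomes 10 and 15 are the exceptions, and chromosomes 4 and 9 sit at or near 0.

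The clusters of the libraries lay largely on the same bases. In the last 500 bp the minus-strand reads covered 1564 positions in S phase, against 1506 in G1 phase, a ratio of 0.987 (0.919 to 1.06) after scaling to all covered positions. Covered bases could hardly increase, since most of those used in 1 library were used in the other, so this ratio does not show whether more bases would have been used. Of these positions 1359 were covered in both libraries, which is 86.9% of those in S phase, against 90.2% of those in G1 phase. In the preceding 100 kb the shared positions made up 1.57% and 1.56%. At 993 of the 1359 shared positions the scaled count was higher in S phase, and the median ratio over them was 1.496. The same held at 34 of 47 shared minus-strand positions of the preceding 100 kb. Their median ratio was 1.309, which is what equal counts give after scaling. The share of positions higher in S phase was thus close to that of the background, and nothing is read from it about the ends. The rank correlation of the counts over the shared positions of the last 500 bp was 0.598, as a description over bases that come from the same ends.

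Stack heights here and below are read counts without scaling, and the G1 library is the deeper of the pair. The outermost minus-strand positions held 9.89 reads on average in S phase, against 7.08 in G1 phase. Chromosome 16 made up most of that difference, and without it the averages were 5.85 and 5.35. In the preceding 100 kb they were 2.41 and 3.25 reads per minus-strand position. The median stack was 4 reads in both libraries, and 18.0% and 18.1% of positions held a single read, against 43.2% and 36.4% in the preceding 100 kb. The 10 highest positions held 38.8% of the outermost minus-strand reads in S phase, against 25.7% in G1 phase, and 51 and 38 positions held more than 20 reads. Without chromosome 16 the 10 highest held 9.04% and 11.5%, and 33 and 24 positions held more than 20 reads.

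The highest stack of both libraries was the same base, position 98107608 on chromosome 16, base 169 from the end, with 2025 and 1493 reads (98.6 and 55.5 RPM). It held 28.9% and 46.2% of the minus-strand reads of that end. At 14 of the 17 ends the highest minus-strand stack was at the same base in both libraries. On chromosome 7 it was base 459, with 128 and 130 reads, 1 base closer to the end than the inner edge of the cluster, and on chromosome 18 base 385, with 142 and 126 reads, 6 bases closer than it. On chromosome 6 it was base 30, with 48 and 17 reads, 1 base closer than the edge. Here the inner edge is the last minus-strand base reached from the end without a gap of more than 100 bases. On chromosome 10 the highest stack was at base 17, with 96 and 135 reads, 133 bases closer than the edge, and on chromosome 14 at base 330, with 68 and 37 reads. The highest stack lay within 20 bases of the inner edge at 9 of 17 ends in each library. Among these are chromosomes 15 and 17, with edges at base 2 and base 21, where any base of the cluster lies that close. On chromosomes 6 and 8, with edges at base 31 and base 32, most bases do.

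**Figure D3:**
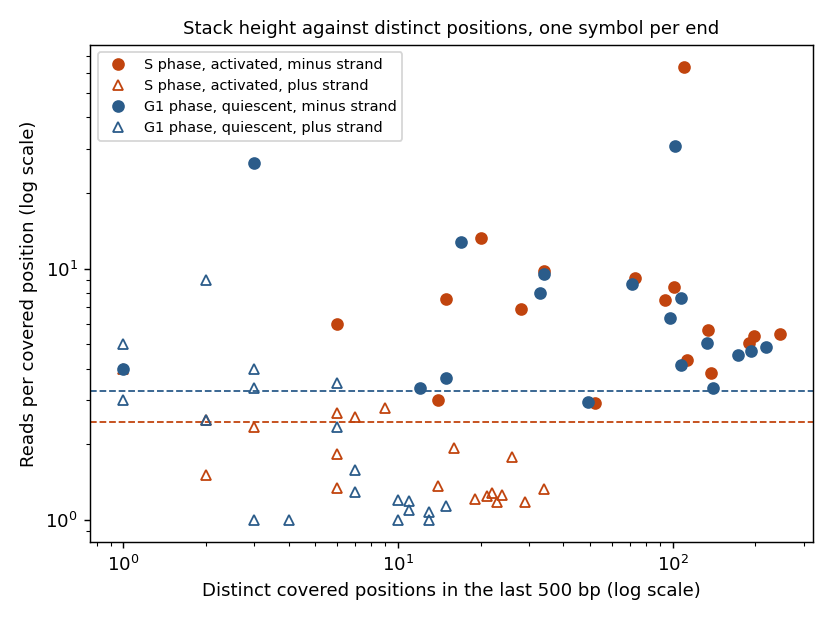
Reads per covered position against the number of distinct covered positions in the last 500 bp, both on log scales, with 1 symbol per end, library and strand (filled circles minus strand, open triangles plus strand). Dashed lines mark the mean over both strands of the preceding 100 kb, 2.46 reads in S phase, against 3.27 in G1 phase. Most minus-strand circles lie above the lines, with chromosome 16 highest, and most plus-strand triangles of ends with many positions lie below them.

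Minus-strand clusters reached different distances inward. Their inner edge lay between base 2 and base 629, with a median of 194 over the 17 ends. How much of the repeat array the assembly holds at each end was not examined. These distances therefore describe where reads were placed, and not how far inward DNA ends reach in the cell. Chromosome 14 had the longest at 629 bases, followed by chromosome 7 at 460, chromosome 2 at 417 and chromosome 18 at 391, and the shortest were chromosomes 15 at 2, 17 at 21, 6 at 31 and 8 at 32. The size of a cluster in reads did not follow its length alone, since chromosome 16, with the most reads, reached 194 bases inward, as did chromosome 1 with 850 and 815 reads. In the 12 clusters longer than 100 bases the innermost 60 bases held 8033 and 4375 reads, and the outermost 60 bases 2256 and 1960. These parts overlap on chromosome 11, whose cluster has 109 bases, so some of its reads count in both. Without chromosome 16 the sums were 1681 and 1944 reads in the S-phase library and 1676 and 1731 in G1 phase, but single ends differed. The innermost part held more reads at 5 of the 12 ends in S phase and at 7 in G1 phase. In S phase it held 343 reads against 83 on chromosome 7 and 309 against 73 on chromosome 18, whereas chromosome 3 held 59 against 353 and chromosome 19 held 0 against 80.

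Within the clusters the read starts were spaced 6 bases apart. When bases were sorted into 6 registers by their distance from the end, 3 adjacent registers held nearly all minus-strand reads, and the other 3 were nearly empty. The 3 registers were chosen for each end in 1 library and the share was measured in the other. At the 16 ends with at least 10 covered positions in both libraries, these 3 registers held 97.6% of 15437 reads in S phase, against 97.4% of 10583 reads in G1 phase, where an even spread over 6 registers would put equal numbers inside and outside them. The share was at least 90% at 15 of 16 ends in each library. Counted as positions, the shares were 89.9% and 91.4%.

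Chromosome 13 shows the pattern base by base. In the S-phase library base 1 held 19 reads, base 2 held 26 and base 3 held 6, and bases 4 to 6 held 0. The next group, bases 7 to 9, held 11, 23 and 10 reads, and bases 10 to 12 again 0. In the G1 library the same bases held 10, 19 and 8, then 10, 19 and 7, with a single read on base 6 between the groups. The middle base of each group was the highest in both of these groups and both libraries.

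**Figure D4:**
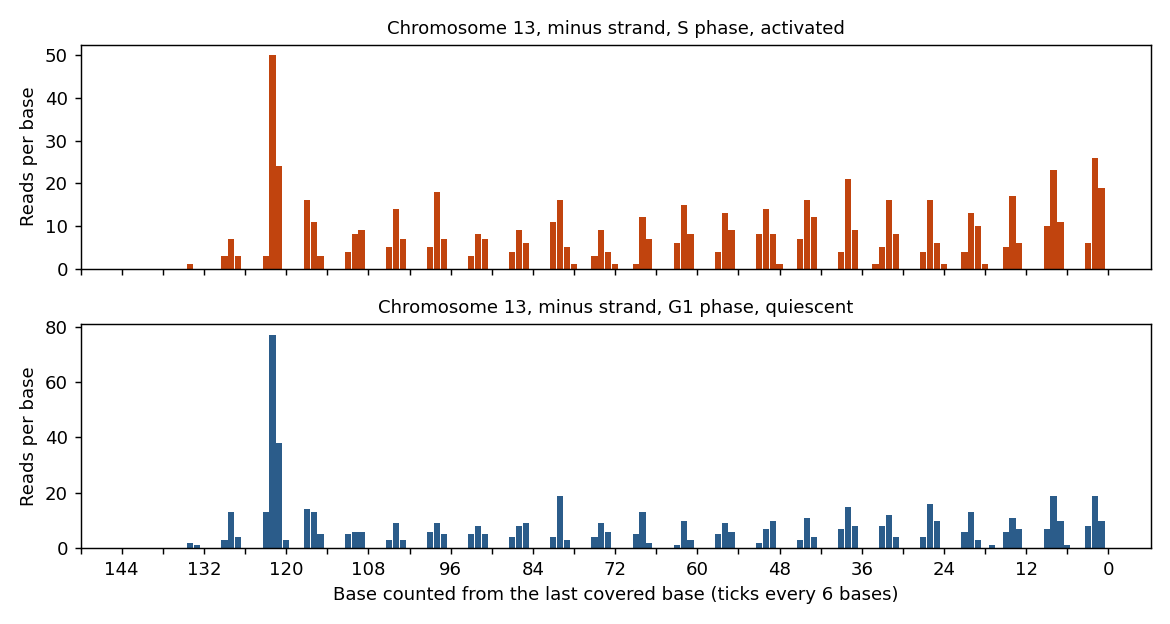
Minus-strand reads per base over the last 150 bases of chromosome 13, S phase above and G1 phase below, with base 1 as the last covered base and ticks every 6 bases (the vertical scales differ). Reads fall in groups of 3 adjacent bases that repeat every 6 bases, and the highest stack is base 122 in both libraries, with 50 and 77 reads.

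The middle of the 3 registers led at 14 of 16 ends in each library. Over all 16 ends it held 51.4% (50.6 to 52.2) of reads in S phase, against 55.2% (54.2 to 56.1) in G1 phase. The register 1 base nearer the end held 26.9% and 23.6%, and the one 1 base further in 19.2% and 18.6%. The exceptions were chromosomes 8 and 10, where the register nearer the end led, with 54.1% and 56.5% on chromosome 8 and 57.5% and 50.6% on chromosome 10. Both have 1 dominant stack, which held 31.3% and 35.0% of the minus-strand reads of the last 10 kb on chromosome 8 and 42.1% and 36.7% on chromosome 10.

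The makeup of the 3 registers was close but not equal in the libraries. Without chromosome 16, the end with the most reads, the middle register held 45.4% (44.3 to 46.5) and 47.8% (46.7 to 48.96), and its share was lower in S phase at 12 of the remaining 15 ends. The register nearer the end held 29.2% (28.2 to 30.2) and 27.4% (26.4 to 28.4) and was higher in S phase at 11 of the 15, and the inner one 21.8% and 21.4%. The S over G1 ratio was 1.41 (1.35 to 1.48) for the middle register, 1.59 (1.499 to 1.69) for the one nearer the end and 1.52 (1.42 to 1.63) for the inner one. On chromosome 16 the middle register held 58.7% and 72.5%. All 3 registers were thus higher in S phase, and the shift between them amounts to a few points outside chromosome 16.

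**Figure D5:**
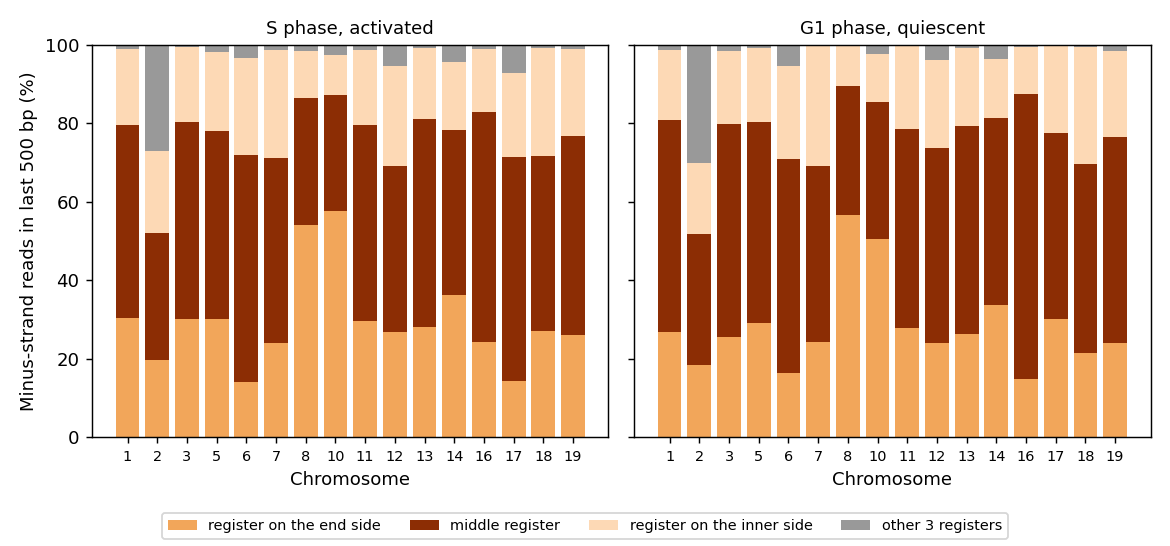
Share of minus-strand reads of the last 500 bp in each register of 6 bases, for the 16 ends with at least 10 covered positions in both libraries, S phase on the left and G1 phase on the right. The 3 coloured registers were chosen in the other library and fill over 90% of each bar except on chromosome 2, with 72.9% and 69.8%, and the dark middle register leads except on chromosomes 8 and 10.

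On chromosome 2 the leading register changed along the cluster. From base 1 to base 180 register 1 led in all 3 pieces of 60 bases in both libraries, bases 181 to 240 held under 20 reads, and from base 301 to base 360 register 3 led, with 74.3% of 70 reads in S phase, against 54.5% of 77 in G1 phase. The libraries did not share the leading register over bases 241 to 300, with register 3 in S phase (26.7%) and 4 in G1 phase (22.5%), or over bases 361 to 420, with register 2 (53.2%) and register 3 (52.2%). When the registers were chosen within pieces of 60 bases, chromosome 2 reached 92.0% and 91.1%. Chromosome 14 changed in the same way, from register 1 over bases 1 to 300 to register 5 over bases 481 to 660, and reached 99.0% and 99.1% in pieces. They also differed over bases 301 to 360 of chromosome 14, where register 6 led in S phase with 44.8% of reads and register 1 in G1 phase with 47.7%.

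The 6-base spacing was rare elsewhere on chromosomes 1 to 19. Among 500 bp bins with at least 20 covered positions in both libraries, 13 of 14 bins at the right ends had at least 80% of their S-phase positions in the 3 registers that led in G1 phase, all on the minus strand, and chromosome 2 was the exception with 68.8%. Outside the right ends 7 of 588 such bins did (1.19%), 4 on the minus and 3 on the plus strand, and the median share over the 588 was 51.9%. The 13 bins at the ends, chromosome 16 among them, had a ratio of 1.92 (1.87 to 1.97), or 1.49 (1.45 to 1.54) over the 12 without it, and the 7 others together 1.23 (1.165 to 1.2998).

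Those 7 bins lay far from the ends and mostly on 1 strand. The bin with the most reads was on the minus strand of chromosome 14 (86198749 to 86199248), with 699 and 769 reads against 24 and 9 on the plus strand, a ratio of 1.19 (1.07 to 1.32). A bin on chromosome 12 (93577022 to 93577521) had the spacing on both strands, with 556 and 663 minus-strand and 78 and 76 plus-strand reads. On chromosome 5 a minus-strand bin in Flt1, a receptor gene for vascular endothelial growth factor (147611183 to 147611682), had 348 and 275 reads, at a ratio of 1.66 (1.41 to 1.95). On chromosome 8 a plus-strand bin (83756712 to 83757211) had 519 and 418 reads and 1.63 (1.43 to 1.85), and on chromosome 18 one in G630055G22Rik had 298 and 435 and 0.897 (0.771 to 1.04). Their ratios thus spread on both sides of the median of the ends.

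Plus-strand reads, which run toward the end, were few at the ends, and their level was higher in S phase. The last 500 bp of the 19 ends held 406 and 206 plus-strand reads, or 19.8 and 7.66 RPM, a ratio of 2.58 (2.18 to 3.07). It was 2.58 without chromosome 16 and 2.57 with stacks capped. As positions there were 270 and 128, a ratio of 2.01 (1.62 to 2.49). The level per base was 11.4 times (10.3 to 12.6) that of the preceding 100 kb in S phase, against 4.36 times (3.78 to 5.01) in G1 phase. The plus-strand ratio in the preceding 100 kb was 0.983 (0.953 to 1.01).

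Per end the plus-strand counts were small, from 3 to 46 with a median of 23 in S phase and, in G1 phase, from 3 to 21 with a median of 12. The ratio was above 1 at 16 of 19 ends, with 11 intervals wholly above 1 and 0 wholly below. Chromosome 12 held 46 and 13 reads, a ratio of 4.63 (2.46 to 9.34), chromosome 18 held 45 and 14, 4.21 (2.27 to 8.30), chromosome 5 held 31 and 11, 3.69 (1.80 to 8.13), and chromosome 7 held 34 and 13, 3.42 (1.76 to 7.07). Chromosome 10, low on the minus strand, was also below 1 here, with 11 and 21 reads and 0.686. Chromosome 6, high on the minus strand, had 4 and 12 plus-strand reads and 0.436, and chromosome 17 had 3 and 5.

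In contrast with the minus strand, these plus-strand reads were hardly stacked. They held 1.504 and 1.61 reads per position, below the 2.50 and 3.28 of the preceding 100 kb, and 74.1% and 83.6% of positions held a single read. The libraries shared 31 plus-strand positions, 11.5% of those in S phase, against 24.2% of those in G1 phase. That was less than on the minus strand but more than in the preceding 100 kb, where shared plus-strand positions made up 1.84% and 1.80%. Plus-strand starts also lay more often in 1 register than in the others. Within the minus-strand clusters of the last 500 bp, 109 of 175 plus-strand positions in S phase (62.3%) lay in the middle register of the minus-strand reads, as did 49 of 91 in G1 phase (53.8%).

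From 501 bp to 10 kb the plus strand held 829 and 1226 reads, a ratio of 0.885 (0.809 to 0.967), and over the full 10 kb the ratio was 1.13 (1.05 to 1.22). Of the 19 bins beyond 500 bp, summed over the ends, 5 had an interval wholly below 1 and 2 wholly above. The bins from 1001 to 1500 bp, with 66 and 137 reads, and from 1501 to 2000 bp, with 28 and 72 reads, were low in S phase, at 0.631 (0.463 to 0.852) and 0.509 (0.317 to 0.798). The bins from 4001 to 4500 bp, with 65 and 57 reads, and from 9001 to 9500 bp, with 49 and 37 reads, were high, at 1.49 (1.03 to 2.17) and 1.73 (1.108 to 2.73). Much of the difference in the bin from 1001 to 1500 bp came from chromosome 10 (130593494 to 130593993). That end held 1 read there in S phase, against 25 on 4 positions in G1 phase. Counted as positions, the plus-strand ratio from 501 bp to 10 kb was 0.970 (0.834 to 1.13), with an interval that held 1.

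By a rule of size, a bin was called when it held at least 20 reads in a library and its scaled ratio was at least 2 or at most 0.5. Of 760 strand-specific bins 34 reached 20 reads, 14 were higher in S phase by this rule and 2 were lower. Over all such bins of chromosomes 1 to 19, 15.2% were higher and 64.2% lower, and over those of the preceding 100 kb 18.9% and 62.2%. The G1 library is the deeper of the pair, and the part of its depth in these shares was not tested. Of the 17 outermost minus-strand bins that reached 20 reads, 2 were higher (chromosomes 6 and 16), 0 were lower and 15 were neither. Of 11 outermost plus-strand bins 10 were higher, but all 10 reached 20 reads in the S-phase library alone, and 91.2% of all bins that did so were called higher, so nothing is read from that count. The lower bins were both on the plus strand, the one on chromosome 10 given above and one on chromosome 6 with 0 and 20 reads.

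Other chromosome ends were set beside these for comparison. The left ends, the first 10 kb with reads next to the unassembled centromeric part, showed no such excess at 18 of 19 chromosomes. There the first 500 bp held 0 to 9 plus-strand reads in S phase, against 0 to 25 in G1 phase, and the plus strand, which runs away from a left end, held 50.5% and 51.2% of reads over the 10 kb. The left end of chromosome 9 stood apart, its first 10 kb holding 102171 plus-strand and 57044 minus-strand reads in S phase, against 144983 and 77035 in G1 phase. The right end of chromosome X had a cluster on the minus strand, with 129 and 156 reads in the last 500 bp, a ratio of 1.08 (0.850 to 1.38), and 76.0% and 80.8% of its reads lay in the 3 registers chosen in the other library, or 100% and 98.7% when these were chosen within pieces of 60 bases. The right end of chromosome Y held 0 minus-strand reads in its last 500 bp in both libraries.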

How the data were processed

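Per the file headers, the authors deposited 1 bedGraph track per library and strand, and its values are whole-number read counts per base, without normalization. The submitters' processing notes name mm10 as the build and list the tools bedtools, SAMtools 1.11 and Bowtie 1.1.2. With which settings they ran, what was done with duplicate reads, and where reads matching several places were put, is not given in the sources used here. A read that lies wholly in a repeated stretch can therefore have come from another chromosome end, or from a part of an array that the assembly lacks. Values per end thus describe where reads were placed.

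Sums of the deposited counts were made in pandas 2.3.3 and numpy 2.4.6 under Python 3.11.15. Exact intervals came from scipy 1.17.1, and figures from matplotlib 3.10.9. Counts were scaled to each library's total on chromosomes 1 to 19. The scripts were tested on simulated data. No test between the libraries was possible, with 1 library each. Named are the 4 ends with the most and 2 with the fewest reads, the 2 highest and 2 lowest ratios per strand, the 6 fullest bins per strand, the highest stacks and the nearest genes. Other ends were named after their values were seen. The regions and rules were chosen with earlier results of these data known, and the last 500 bp, the inner edge, the registers and the interior bins with 6-base spacing were examined after the profile was seen.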

Additional observations from a re-analysis of the deposited data

How the results depend on the processing

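The minus-strand excess in S phase was present in counts of reads and not in counts of positions, and its size changed without chromosome 16. With each covered position counted once, the minus-strand ratio was 0.999 (0.937 to 1.07) over 10 kb and 0.987 (0.919 to 1.06) over the last 500 bp, the plus-strand ratios were 1.25 and 2.01, the levels over the preceding 100 kb were 6.43 in S phase and 6.07 in G1 phase (minus) and 2.20 and 1.65 (plus), the minus-strand shares 75.5% and 79.4%, and 5 bins were called higher and 0 lower. In that count the minus strand of the last 500 bp of chromosomes 5, 6 and 18 stood at 0.979, 0.951 and 0.975. Chromosomes 7, 14 and 16 stood at 1.06, 1.04 and 1.03, and chromosome 10 at 0.783. All of these intervals hold 1. In the last 500 bp most minus-strand positions were covered in both libraries, so their number could hardly increase. A ratio near 1 in this count therefore says little about the excess in reads. The cause of the difference between the counts was not tested. With stacks capped the minus-strand ratios were 1.46 and 1.48, the minus-strand levels 14.5 and 9.51 and the shares 89.4% and 86.7%. Without the end of chromosome 16 they were 1.47 and 1.48, 14.4 and 9.40, and 89.4% and 86.8%. In the last 5 kb the levels were 45.5 and 23.4 (minus) and 2.47 and 2.04 (plus), with shares of 94.9% and 92.3%. Without the outermost 500 bp bin the ratios were 1.37 (minus) and 0.885 (plus), the levels 1.94, 1.36, 1.23 and 1.37, the shares 61.5% and 50.8%, and 2 bins were called higher.

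Counts of called bins moved with the minimum. With at least 10 reads, 25 were higher and 44 lower, with at least 50 reads 2 and 0, and with bins of 1 kb 12 were lower. In 50 further comparisons of these results with an alternative (scaling to the whole library, a preceding 50 kb, a ratio of 1.5, the end of each strand and others), values stayed within the counting interval or, for counts of bins, within 1.5 times. Some of these could not change, since levels and shares do not depend on the scaling. Nor do ratios of the last 500 bp depend on the window of 5 kb. The number of unchanged comparisons is therefore no measure of stability. No paired analysis was possible because each group has 1 library. Leaving chromosome 16 out of the level, the stack heights and the spaced bins of the last 500 bp was chosen after seeing the data. Depth limits chromosomes 15 and 17 and all plus-strand values per end.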
